A study of Mus musculus with 8 samples.

Results

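Mesodiencephalic dopaminergic (mdDA) neurons sorted at E14.5 were compared with the same kind of neurons sorted at E13.5, to describe one day of their maturation. The members were the arrays whose labels name neurons isolated at these stages, 4 of the 8 arrays of the series, with 2 arrays per stage. Both groups came from the ventral midbrain of *Pitx3GFP/+* embryos on a mixed C57BL/6 x 129/Ola strain, of undetermined sex and without a treatment, and both were isolated by fluorescence-activated cell sorting (FACS) for GFP. The remaining 4 arrays held laser-microdissected tissue of E12.5 *BAT-gal* embryos, namely the WNT/b-catenin-responding mdDA domain and a lateral domain outside it (2 arrays each), and their levels are given where they help to read a gene. These arrays differ from the sorted ones in strain (B6D2F1, mixed), genotype, fixation and RNA isolation as well as in stage, so their levels are a description. The sorted cells were defined by GFP made from a *Pitx3* allele, so they were cells in which *Pitx3* had been switched on, and every embryo carried this allele. The labels call both arrays of a stage technical replicates, and the number of embryos or sorts behind them is not given in the sources used here. The p-values below therefore measure the spread between technical replicates, and stage and cell preparation cannot be told apart.

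The mdDA neurons arise from the floor plate of the ventral midbrain and become the dopamine neurons of the substantia nigra pars compacta (SNc) and the ventral tegmental area (VTA). Their precursors leave the cell cycle, switch on *Nr4a2* and *Pitx3* and then the genes that make, store and take up dopamine. At the stages studied here the young neurons migrate, send axons towards the striatum and begin to separate into subsets, while their synapses and mature firing develop later.

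Levels are log2 values as deposited, so a difference of 1 is a 2-fold difference, and each difference is E14.5 minus E13.5. The comparison covered 35556 probe sets, of which 21789 carried 1 gene symbol and stood for 19938 genes. No probe set passed limma at a false discovery rate below 10%, in either direction (0.00% higher and 0.00% lower, smallest adjusted p = 0.605). At an unadjusted p below 0.05 there were 955 higher (2.69%) and 1201 lower probe sets (3.38%), together 6.06% of all, close to the 5% that this threshold lets through by itself. The fit over all 8 arrays, which borrows the spread of the dissected tissue, called 9 probe sets higher and 11 lower, and the 6 with a single symbol were *Fos*, *Tafa1* and *1110059G10Rik* (higher) and *Lhx9*, *Rnu3a* and *Prr11* (lower). With p-values adjusted over the probe sets with 1 symbol alone, a setting added after the data were seen, that fit called 0, so all 6 of these calls were lost.

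By the number of genes that differed at least 2-fold, the stages were no further apart than the E14.5 arrays were from each other. Between the 2 E14.5 arrays 417 genes differed at least 2-fold, and between the 2 E13.5 arrays 183 did. The 4 pairs of arrays from different stages had 347 to 378 such genes. The correlation over all probe sets was 0.975 within E13.5, 0.966 within E14.5 and 0.968 to 0.970 between the stages, and all 4 arrays had a median log2 level of 4.39. What follows is therefore given as values, and a gene is called separated when both E14.5 arrays lay on the same side of both E13.5 arrays. This held for 3608 genes with higher E14.5 arrays (18.1%) and 3800 with lower ones (19.1%). A separation by at least 1.5-fold was met by 324 higher (1.63%) and 373 lower genes (1.87%), and by at least 2-fold by 66 higher (0.331%) and 42 lower genes (0.211%). Counts for gene groups below are to be read against these shares. Single genes from the lists, other than the 10 with the largest difference in each direction, the 2 members with the highest level of each list, the genes that define the sorted cells and those the study follows, were chosen after their values were seen.

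**Figure D1:**
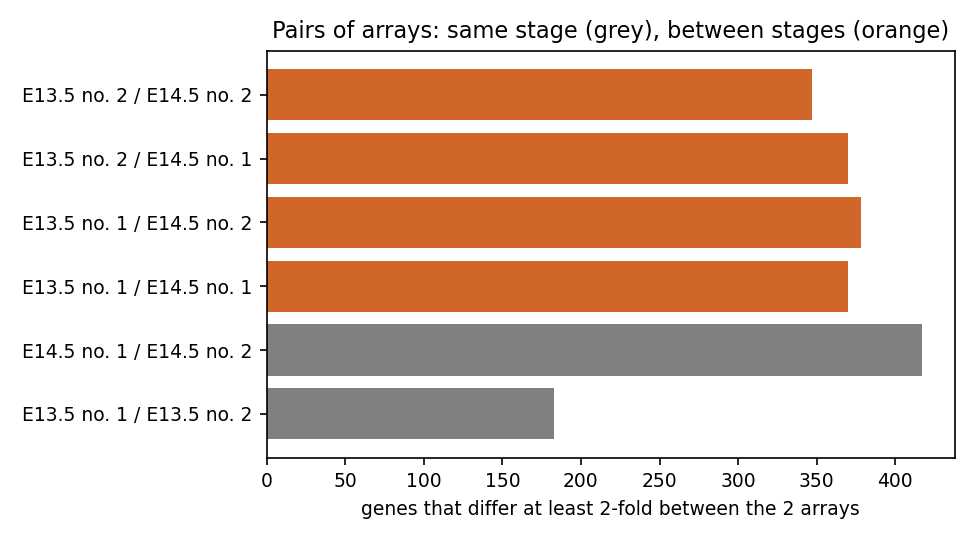
Number of genes that differed at least 2-fold between 2 arrays, for each of the 6 pairs of sorted-neuron arrays, with pairs of the same stage in grey and pairs between stages in orange. The pair of E14.5 arrays had 417 such genes, more than any pair between the stages (347 to 378), and the pair of E13.5 arrays had 183.

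The largest difference among genes separated upwards with an unadjusted p below 0.05 belonged to a microRNA gene, *Mir99a*, and its sequence is shown with those of its cluster and of its seed family, so that the members can be told apart. Mature microRNAs are from RefSeq (GRCm38.p6), with the seed (bases 2 to 8), which pairs with target transcripts, in capitals. miR-99a-5p comes from chr16:77598940-77598961 (plus strand), where let-7c-5p and miR-125b-5p are encoded by *Mirlet7c-1* and *Mir125b-2* in the host transcript *Mir99ahg*. miR-99b-5p and miR-100-5p, from *Mir99b* and *Mir100* on other chromosomes, share the seed of miR-99a-5p.
miR-99a-5p: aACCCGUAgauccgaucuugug
miR-99b-5p: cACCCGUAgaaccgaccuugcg
miR-100-5p: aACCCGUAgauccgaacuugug
let-7c-5p: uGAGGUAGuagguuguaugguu
miR-125b-5p: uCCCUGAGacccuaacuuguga

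The probe set of *Mir99a* read 5.30 and 6.74 at E13.5 and 8.82 and 8.61 at E14.5. Both E14.5 arrays lay above both E13.5 arrays, which lay far apart from each other. The difference was 2.70 (standard error 0.52, limma adjusted p = 0.744). The host transcript *Mir99ahg* overlapped between the stages (7.24 and 7.47 at E13.5, 6.81 and 7.49 at E14.5). *Mirlet7c-1* overlapped as well and was low throughout (2.86 and 3.45, then 3.01 and 2.63). *Mir125b-2* read 2.84 and 3.41 and then 2.80 and 2.68, a difference of -0.38 that was -0.10 without the second E13.5 array and -0.67 without the first. Of the genes with the same seed, *Mir100* overlapped between the stages (3.72 and 3.14, then 2.90 and 3.28). *Mir99b* was slightly higher on both E14.5 arrays, at 5.68 and 5.91 and then at 5.94 and 6.07, a difference of 0.21 that was 0.09 without the first E13.5 array and 0.32 without the second. A second microRNA gene, *Mir181b-2*, read 5.37 and 4.50 at E13.5 and 6.12 and 6.70 at E14.5, a difference of 1.47 (limma adjusted p = 0.744). An array probe set of this kind can bind precursor and host RNA as well as the mature form. Which of them it measured here was not tested, so the values do not show a difference of the mature form.

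Of the genes that define the sorted cells, *Th*, *Pitx3* and *Nr4a2* were at similar levels at both stages. *Slc18a2*, *Ddc*, *Foxa1*, *Foxa2*, *En2* and, by a small margin, *Nr4a2* of this set were separated downwards and *Slc6a3* upwards, with their values given below. *Th*, the gene of tyrosine hydroxylase, which sets the pace of dopamine synthesis, read 10.58 and 10.57 at E13.5 and 10.47 and 10.61 at E14.5, a difference of -0.03 with a 95% interval from -0.40 to 0.33. *Pitx3*, the gene on which the sort rests, read 7.79 and 7.82 at E13.5 and 7.72 and 7.97 at E14.5 (0.04, 95% interval -0.38 to 0.46). The arrays of the stages overlapped for both genes. *Nr4a2*, the nuclear receptor gene needed for the dopaminergic phenotype, was at 10.58 and 10.52 and then at 10.49 and 10.46, slightly lower on both E14.5 arrays (-0.07). In the lateral domain of E12.5, outside the mdDA domain, *Th* had a mean of 5.34. There *Pitx3* had a mean of 6.72.

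Among 18 measured genes of dopamine synthesis, storage and reuptake 2 were separated upwards and 6 downwards, with a median difference of -0.08 where all genes had 0.00. The median was -0.02 without the first E14.5 array, -0.06 without the second E13.5 array and -0.05 with a filter on dim probe sets. *Slc18a2*, which encodes the vesicular monoamine transporter that loads dopamine into vesicles, read 9.48 and 9.49 at E13.5 and 9.11 and 8.85 at E14.5, a difference of -0.50 (standard error 0.15, limma adjusted p = 0.776). *Slc6a3*, which encodes the dopamine transporter of the plasma membrane, went the other way, from 8.01 and 8.32 to 8.50 and 8.46 (0.32, limma adjusted p = 0.864). *Ddc*, which encodes the enzyme that completes dopamine synthesis, read 9.062 and 9.122 and then 9.061 and 8.906, so that its stages all but met. *Qdpr*, which encodes an enzyme that regenerates the cofactor of tyrosine hydroxylase, was the only member separated by at least 1.5-fold, with 6.11 and 6.09 at E13.5 and 5.44 and 5.49 at E14.5.

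The transcription factors of the lineage lay slightly lower at E14.5. Of 15 measured mdDA transcription factor genes 11 were separated downwards and 0 upwards, against 19.1% and 18.1% of all genes, with a median difference of -0.17. Only *Otx2* reached 1.5-fold. Among the regulators of floor plate identity, *Foxa2* read 8.57 and 8.54 at E13.5 and 8.27 and 8.29 at E14.5, and *Foxa1* read 9.75 and 9.50 and then 9.49 and 9.32, so that its E13.5 and E14.5 arrays nearly met. The midbrain factor gene *En2* read 10.36 and 10.24 and then 10.19 and 10.07. *En1* (9.10 and 9.04, then 8.85 and 9.14) and *Lmx1b* (8.16 and 8.25, then 7.88 and 8.24), both known for dopaminergic survival, overlapped between the stages, as did *Pitx3* and *Ebf2*, and without the first E14.5 array the differences of *En1* and *Lmx1b* turned to 0.07 and 0.03. *Ebf3*, a factor of postmitotic neurons and one of the members with the highest level, read 10.41 and 10.39 at E13.5 and 10.12 on both E14.5 arrays. *Ebf1* read 8.50 and 8.56 and then 7.87 and 8.10 (-0.55, limma adjusted p = 0.744). Of 12 floor plate genes 1 was separated upwards and 4 downwards.

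Genes that mark dopamine neuron subsets held several members with well separated arrays. *Aldh1a1*, which encodes a retinoic acid-producing and aldehyde-detoxifying enzyme of ventral SNc and some VTA neurons, read 7.98 and 7.78 at E13.5 and 9.31 and 9.38 at E14.5. The arrays of a stage were close together and the stages were 2.77-fold apart (1.47, standard error 0.15, limma adjusted p = 0.667). In the dissected mdDA domain of E12.5 its mean level was 4.04. *Lypd1*, which encodes a protein that dampens nicotinic receptors, was 2.13-fold higher, with 6.12 and 6.81 at E13.5 and 7.50 and 7.61 at E14.5. *Neurod6*, a transcription factor gene of a VTA subset, read 4.50 and 4.84 and then 5.30 and 5.77. *Calb1*, which encodes the calcium buffer calbindin of VTA and dorsal SNc neurons, read 4.39 and 4.94 and then 5.23 and 5.69 (0.79, limma adjusted p = 0.819). *Otx2*, a transcription factor gene of the VTA subset and of midbrain progenitors, went the other way, from 8.71 and 8.46 to 7.69 and 8.15 (-0.67, limma adjusted p = 0.801). *Sox6*, which marks SNc neurons, was slightly lower on both E14.5 arrays, at 6.22 and 6.09 and then at 6.08 and 5.94. Over the 24 measured subset genes 6 were separated upwards and 3 downwards, and 4 upwards by at least 1.5-fold, where 1.63% of all genes were. The median of 0.13 was 0.05 without the second E13.5 array, 0.08 without the first E14.5 array and 0.22 without the second. The higher *Aldh1a1* and *Calb1* are each described above for both SNc and VTA neurons. *Sox6* of the SNc and *Otx2* of the VTA were lower, so the markers gave no common direction for either subset.

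**Figure D2:**
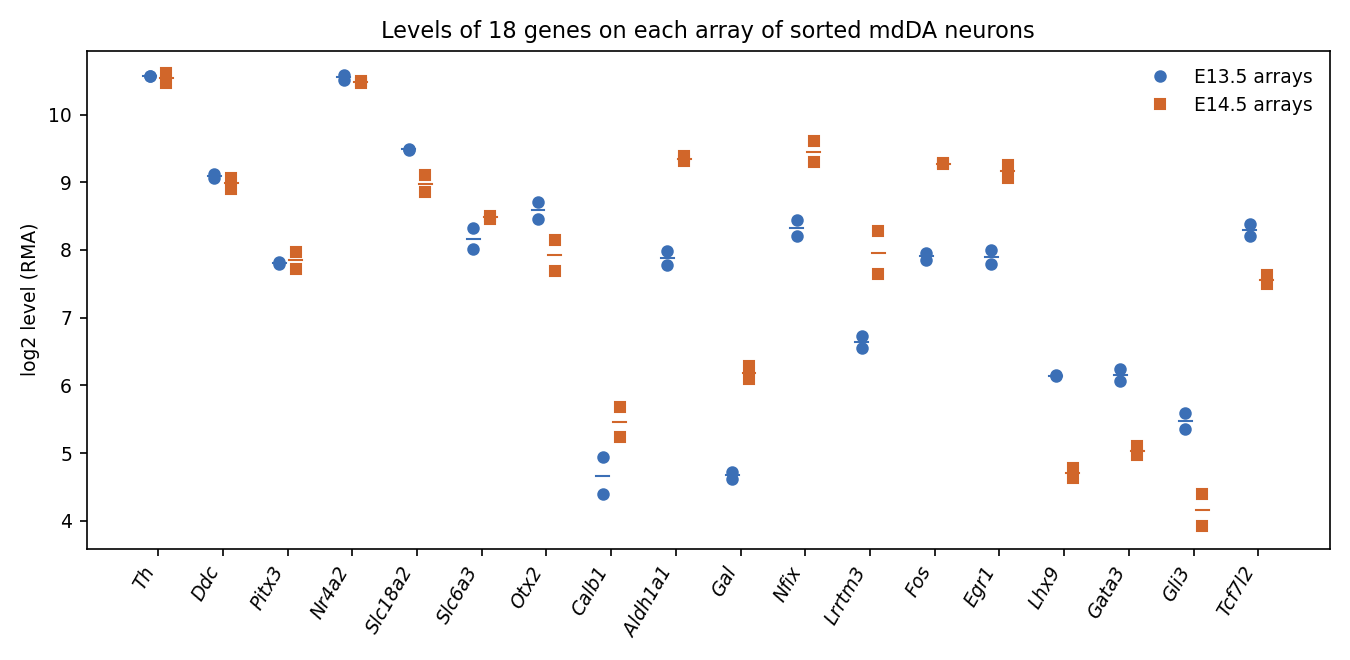
Log2 level of 18 genes on each of the 4 arrays, with E13.5 arrays as blue circles, E14.5 arrays as orange squares and short lines for the mean of a stage. Identity genes on the left (*Th*, *Ddc*, *Pitx3*, *Nr4a2*) lie at similar heights at both stages, *Aldh1a1*, *Gal*, *Nfix*, *Lrrtm3*, *Fos* and *Egr1* lie higher on both E14.5 arrays, and *Lhx9*, *Gata3*, *Gli3* and *Tcf7l2* lie lower on both.

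Genes of the synapse and of signalling to other neurons lay on both sides. *Gal*, which encodes the neuropeptide galanin, read 4.62 and 4.72 at E13.5 and 6.29 and 6.09 at E14.5 (1.52, standard error 0.15, limma adjusted p = 0.667). *Penk* and *Npy* went the other way. *Penk*, which encodes the enkephalin precursor, read 5.22 and 5.49 at E13.5 and 4.04 and 4.50 at E14.5, and *Npy*, which encodes neuropeptide Y, read 6.33 and 6.22 and then 5.51 and 5.62. *Scg2*, which encodes a secretogranin of dense-core vesicles, read 8.20 and 8.34 and then 8.76 and 8.89. *Cck*, which encodes the peptide cholecystokinin, overlapped between the stages (9.62 and 9.52, then 9.54 and 9.66). Over the 31 measured peptide genes 7 were separated upwards and 6 downwards.

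Among peptide and monoamine receptors, 4 of 39 were separated upwards and 6 downwards. *Sstr2*, which encodes an inhibitory somatostatin receptor, read 5.47 and 4.89 at E13.5 and 6.22 and 6.96 at E14.5, with a wide spread at both stages. *Oprk1*, which encodes the kappa opioid receptor, read 5.26 and 5.38 and then 4.49 and 4.64. *Drd2*, which encodes the autoreceptor that senses released dopamine, overlapped between the stages (7.36 and 7.42, then 7.73 and 7.18). The nicotinic receptor genes *Chrna4* and *Chrnb2*, whose products combine into a receptor for acetylcholine, were lower on both E14.5 arrays (9.71 and 9.39, then 8.97 and 9.29 for *Chrna4*, and 7.91 and 7.94, then 7.29 and 7.44 for *Chrnb2*). *Chrna3* (6.69 and 6.30, then 5.22 and 6.14), *Chrna5* (4.08 and 3.68, then 3.602 and 3.38) and *Chrnb4* (4.94 and 5.03, then 4.57 and 4.72), other subunits of the family, also had both E14.5 arrays below both E13.5 arrays. The nicotinic members of the list did not share a direction, since *Chrnb3* (5.88 and 6.00, then 6.25 and 6.12) and *Chrna7* (4.45 and 4.41, then 4.47 and 4.52) had both E14.5 arrays above, and *Chrna6* overlapped (8.41 and 8.72, then 8.10 and 8.56). Over the 45 subunit genes of fast transmitter receptors and their relatives 13 were separated upwards and 9 downwards, with a median difference of 0.02.

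Synaptic organizers were separated downwards more often than upwards (14 and 7 of 42), while 3 were separated upwards and 1 downwards by at least 1.5-fold. *Lrrtm3*, which encodes a postsynaptic partner of neurexins, read 6.72 and 6.55 at E13.5 and 8.28 and 7.65 at E14.5 (1.33, limma adjusted p = 0.744). *C1ql1* read 8.45 and 8.79 and then 9.45 and 9.55, and *Cbln2* read 4.82 and 4.99 and then 5.46 and 5.65. Both encode secreted proteins of the C1q family that bridge the synaptic cleft. Genes of synaptic vesicles and release stood in balance (8 upwards and 8 downwards of 38), with *Syt13*, a synaptotagmin gene, at 7.30 and 7.83 and then at 8.46 and 8.43. *Snap25*, a gene of the fusion machinery and one of the members with the highest level, read 9.18 and 9.29 and then 9.42 and 9.31.

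Potassium channel genes were separated upwards in 14 of 48 and downwards in 12, and *Kcnip1*, which encodes a subunit that tunes A-type currents, read 6.38 and 6.64 at E13.5 and 7.27 and 7.54 at E14.5. *Kcnk9*, a leak channel gene, read 9.79 and 9.76 and then 9.62 and 9.28. Of 34 sodium, calcium and HCN channel genes 1 was separated upwards and 10 downwards, among them the pacemaker channel gene *Hcn4* (6.86 and 6.81, then 6.39 and 6.11). The higher one was *Cacng3*, an auxiliary subunit gene (7.19 and 7.11, then 7.92 and 7.35). Its difference ran from 0.199 to 0.765 when 1 array was left out.

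General neuronal genes lay slightly lower at E14.5. Neurofilament and microtubule-associated genes were separated downwards in 12 of 23 and upwards in 1, with a median difference of -0.16, and pan-neuronal genes downwards in 12 of 23 and upwards in 4, with a median of -0.11. No member of either list reached 1.5-fold. *Map1b*, which encodes a microtubule-binding protein of growing axons, read 11.93 and 11.92 at E13.5 and 11.83 and 11.75 at E14.5, and *Stmn2*, which encodes a tubulin-binding protein of growth cones, overlapped between the stages. *Rbfox3*, which encodes the splicing factor and maturation marker NeuN, was higher on both E14.5 arrays, at 6.59 and 6.89 and then at 7.39 and 7.29 (0.60, limma adjusted p = 0.744), in a list of RNA-binding protein genes with 4 of 26 separated upwards and 10 downwards.

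**Figure D3:**
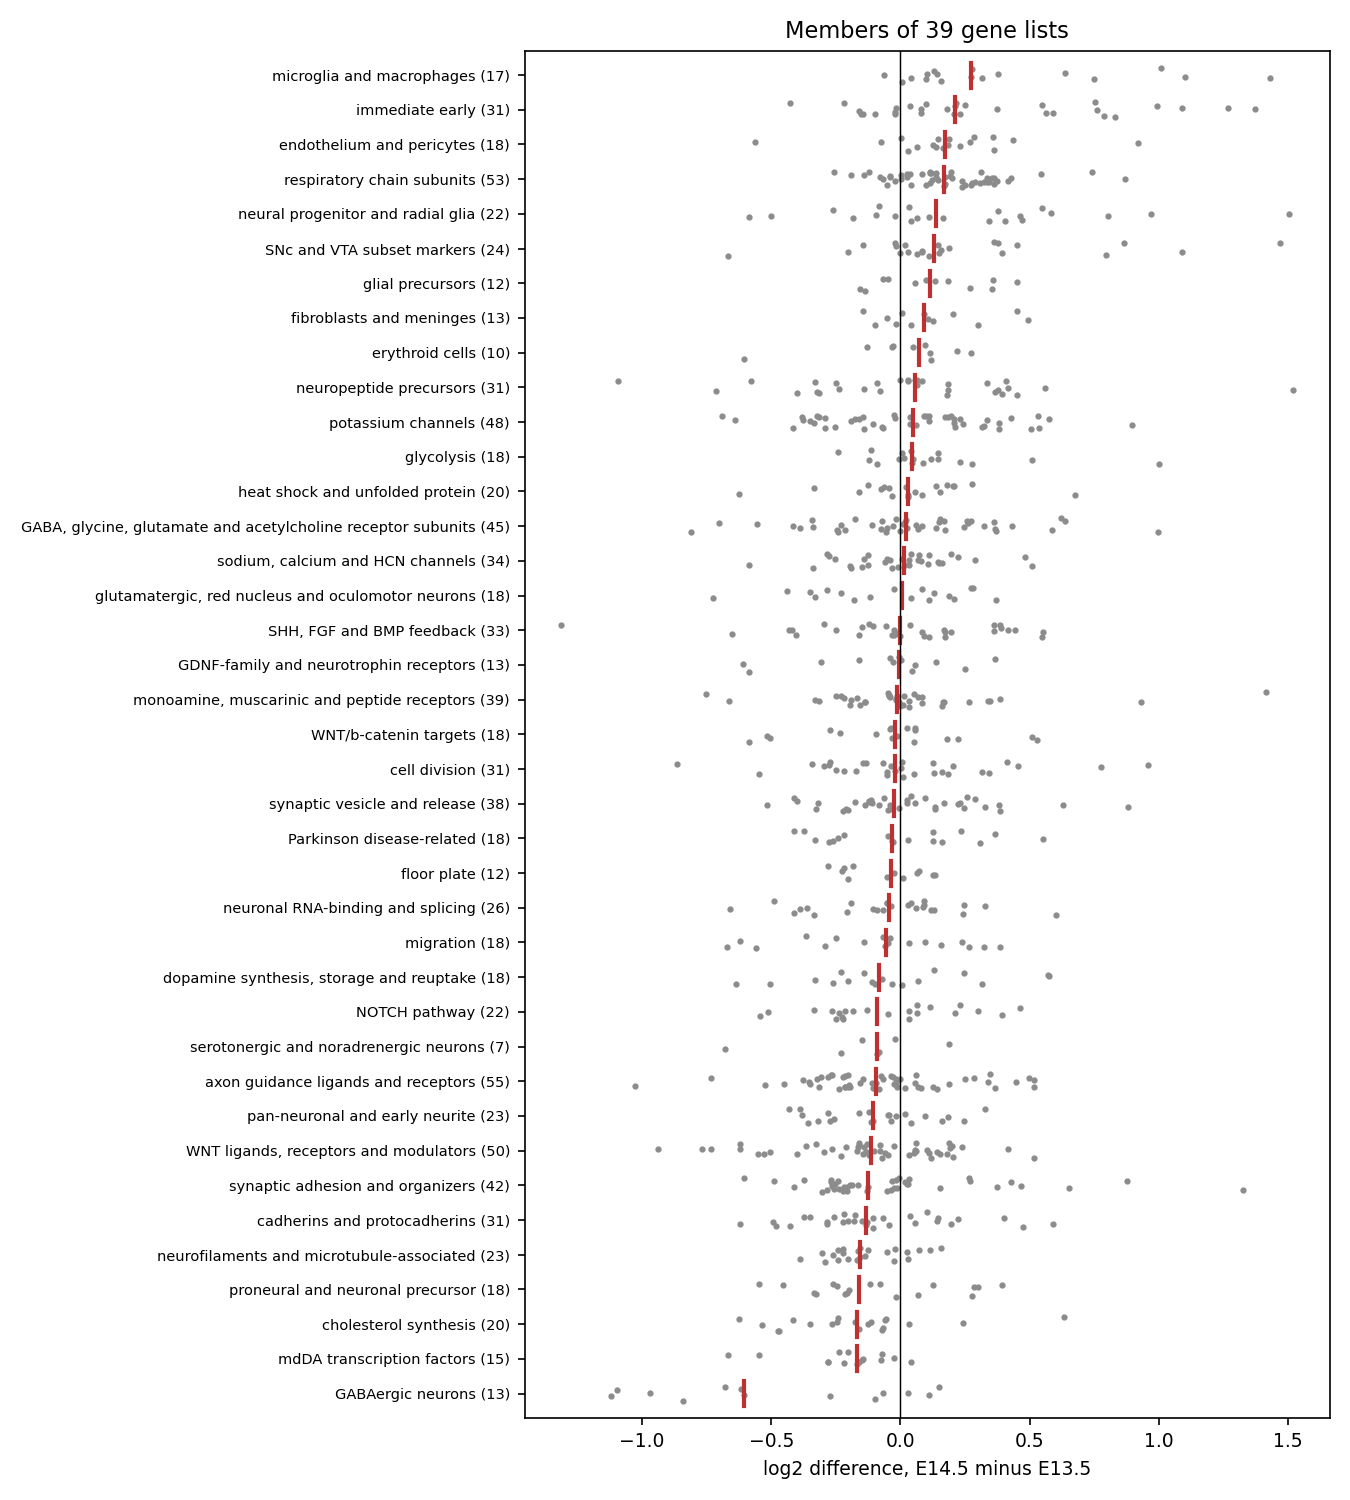
Log2 difference (E14.5 minus E13.5) of every measured member of 39 gene lists, 1 grey point per gene, with the list median as a red bar and the number of measured members in parentheses, ordered by median. Microglial and immediate early genes have the highest medians (0.28 and 0.21) and GABAergic genes the lowest (-0.60), while all other medians lie between -0.2 and 0.2.

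Genes of axon guidance and migration were separated in both directions, and the genes named here are lower ones. *Efna2*, which encodes an ephrin ligand that repels axons bearing EPHA receptors, read 7.50 and 7.39 at E13.5 and 6.46 and 6.37 at E14.5 (-1.03, standard error 0.13, limma adjusted p = 0.695). *Draxin*, which encodes a secreted repellent that also antagonizes WNT signals, read 8.35 and 8.51 and then 7.51 and 7.89. *Robo1*, which encodes a SLIT receptor, read 10.06 and 10.10 and then 9.73 and 9.68, and the netrin receptor gene *Dcc* 9.34 and 9.19 and then 8.995 and 9.09. In all 14 of 55 guidance genes were separated downwards (25.5%) and 10 upwards (18.2%), not far from the 19.1% and 18.1% of all genes. Of 18 migration genes 5 were separated downwards (27.8%) and 4 upwards (22.2%). The lower ones included *Cxcr4*, the receptor gene for the chemokine CXCL12 (10.11 and 9.94, then 9.49 and 9.43), *Rnd3*, a regulator of actin in migrating neurons (8.72 and 8.51, then 7.97 and 7.92), and *Dab1*, the adaptor of reelin signalling (7.37 and 7.55, then 6.85 and 6.83). *Gfra1*, which encodes a GDNF co-receptor, was lower, at 9.28 and 9.16 and then at 8.56 and 8.71.

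The WNT/b-catenin pathway, the subject of the study, works through WNT ligands that bind Frizzled and LRP receptors, are enhanced by R-spondins, and stabilize b-catenin, which then acts with LEF1/TCF factors in the nucleus. Of 50 measured ligand, receptor and modulator genes 18 were separated downwards and 4 upwards (5 and 0 by at least 1.5-fold), with a median difference of -0.11. The median was -0.02 without the first E13.5 array and -0.06 without the first E14.5 array. Among ligands and enhancers, *Wnt1* was low throughout (3.72 and 3.63, then 3.42 and 3.40), *Rspo2* read 5.38 and 5.06 and then 4.72 and 4.99, and *Rspo3* read 5.47 and 4.84 and then 4.41 and 4.04. Among receptors, *Fzd3*, which is known for its part in axon growth, read 8.42 and 8.44 and then 7.97 and 7.88. *Ryk*, a WNT receptor gene of the tyrosine kinase-like family, went the other way, from 7.46 and 7.20 to 7.92 and 7.78.

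Several nuclear members of the pathway were also lower on both E14.5 arrays. *Tcf7l2* read 8.21 and 8.38 at E13.5 and 7.49 and 7.64 at E14.5 (-0.73, standard error 0.15, limma adjusted p = 0.744), and the E12.5 domains had means of 6.47 (mdDA) and 9.45 (lateral). By in situ hybridization the study found this gene only in the dorsolateral midbrain. Which of the sorted cells carried it was not tested. *Lef1*, not far above the array median of 4.39, read 5.18 and 5.49 and then 4.96 and 4.68 (-0.52, limma adjusted p = 0.83). *Tcf7l1* was low and went the other way, slightly higher on both E14.5 arrays, at 4.39 and 4.49 and then at 4.76 and 4.52. The genes of b-catenin cofactors *Bcl9* (8.97 and 8.77, then 8.40 and 8.25) and *Pygo2* (6.34 and 6.12, then 5.69 and 5.52) and of the co-repressor *Tle3* (8.56 and 8.51, then 8.11 and 7.44) were lower on both E14.5 arrays. *Ctnnb1*, which encodes b-catenin itself, overlapped between the stages (-0.02, 95% interval -0.39 to 0.34). Among 18 measured targets 2 were separated upwards and 5 downwards, and the feedback gene *Axin2* overlapped (5.78 and 6.38, then 5.94 and 6.32). Of other genes that the study follows, *Apcdd1* (7.45 and 7.62, then 7.33 and 7.27), *Dlk1* (10.40 and 10.31, then 10.09 and 10.15) and *Smarca1* (7.79 and 7.84, then 7.64 and 7.77) were lower on both E14.5 arrays, *Sulf2* was higher on both (8.58 and 8.59, then 8.74 and 8.70), and *Sulf1*, *Fgf14* and *Dkk3* overlapped.

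Genes of the immediate early response, which neurons and other cells transcribe within minutes of a stimulus and without new protein synthesis, were separated upwards more often than downwards. Of 31 measured genes 14 were separated upwards and 3 downwards, and 9 upwards by at least 1.5-fold, where 1.63% of all genes were. The median difference was 0.21, or 0.16 without the second E13.5 array. The promoters of 4 of the higher members are shown because cyclic AMP- and calcium-regulated factors of the CREB family are known to bind the element TGACGTCA and its first 5 letters, TGACG. Each is the sequence of 250 bases before the start of the gene from RefSeq (GRCm38.p6), at chr12:85473640-85473889 (*Fos*, plus strand), chr7:19310046-19310295 (*Fosb*, minus strand), chr19:4989972-4990221 (*Npas4*, minus strand) and chr17:26508473-26508722 (*Dusp1*, minus strand). Capitals mark TGACG on either strand.
Fos: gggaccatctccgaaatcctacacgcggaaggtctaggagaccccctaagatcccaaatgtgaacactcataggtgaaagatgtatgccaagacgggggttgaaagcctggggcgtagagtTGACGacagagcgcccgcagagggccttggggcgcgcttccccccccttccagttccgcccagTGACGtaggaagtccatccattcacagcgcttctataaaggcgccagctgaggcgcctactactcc
Fosb: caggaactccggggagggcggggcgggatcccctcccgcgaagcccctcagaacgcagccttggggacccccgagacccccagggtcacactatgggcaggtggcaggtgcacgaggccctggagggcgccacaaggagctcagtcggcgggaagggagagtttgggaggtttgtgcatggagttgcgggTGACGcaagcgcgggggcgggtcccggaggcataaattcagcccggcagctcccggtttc
Npas4: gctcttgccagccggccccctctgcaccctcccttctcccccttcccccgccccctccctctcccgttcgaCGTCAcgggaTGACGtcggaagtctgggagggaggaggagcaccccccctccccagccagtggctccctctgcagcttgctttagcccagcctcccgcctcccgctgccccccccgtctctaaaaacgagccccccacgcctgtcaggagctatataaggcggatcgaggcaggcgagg
Dusp1: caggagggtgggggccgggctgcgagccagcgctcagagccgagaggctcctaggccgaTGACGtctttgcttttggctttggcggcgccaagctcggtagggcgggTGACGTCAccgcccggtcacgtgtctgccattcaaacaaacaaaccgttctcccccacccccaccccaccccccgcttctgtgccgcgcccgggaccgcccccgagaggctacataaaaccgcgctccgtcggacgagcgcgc
TGACG on either strand was found before 17 of 26 immediate early genes with a sequence (65.4%) and before 5336 of 26994 genes in all (19.8%). The whole element TGACGTCA, which contains TGACG on both strands, was found before 3 of the 26 (11.5%), *Dusp1* among them, and before 1.77% of all. The 4 promoters shown all hold TGACG, but *Jun* and *Jund*, also higher on both E14.5 arrays, had no match. The 26 genes were counted whatever their difference between the stages. A match is a description of these letters and not a bound site, and a part of it in the differences was not tested.

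*Fos*, which encodes a subunit of the AP-1 factor, read 7.95 and 7.86 at E13.5 and 9.29 and 9.26 at E14.5, which is a 2.59-fold difference (1.37, standard error 0.13, limma adjusted p = 0.667). *Egr1*, a zinc finger factor gene, read 7.995 and 7.79 and then 9.25 and 9.07, and *Fosb* read 8.62 and 8.59 and then 9.50 and 9.71. For these 3 genes the arrays of a stage lay close together and the stages well apart. *Npas4*, which is known to respond to calcium entry in neurons, read 6.64 and 6.47 and then 7.39 and 7.38. *Dusp1*, which encodes a phosphatase that ends MAP kinase signals, read 8.51 and 8.70 and then 9.56 and 9.17, and *Jun*, the partner of *Fos*, read 8.60 and 8.76 and then 9.15 and 9.31. *Jund*, another AP-1 gene, differed by 0.21. The mean level of the list was 6.16 and 6.10 on the E13.5 arrays and 6.45 and 6.47 on the E14.5 arrays. In the laser-microdissected tissue of E12.5 it was 5.03 (mdDA domain) and 5.08 (lateral domain), and *Fos* was at 4.24 and 4.57. Of 20 heat shock and unfolded protein genes 3 were separated upwards and 4 downwards, with a median difference of 0.03.

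**Figure D4:**
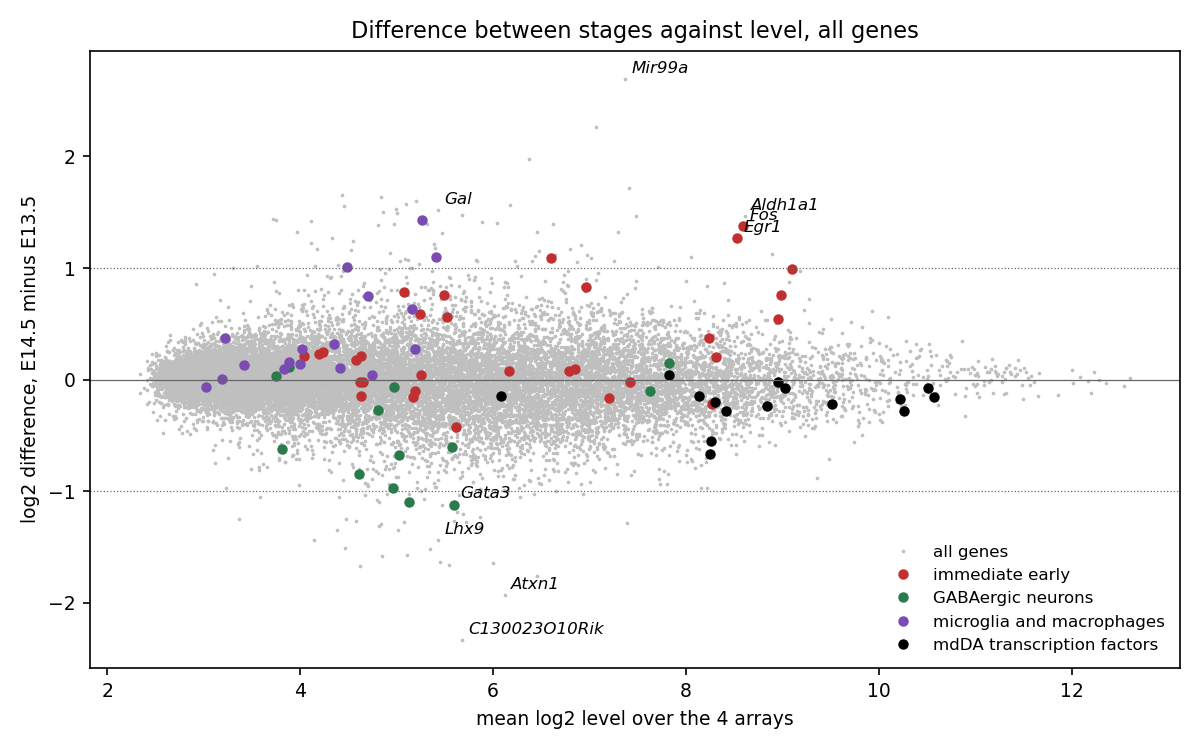
Log2 difference (E14.5 minus E13.5) of 19938 genes against their mean log2 level over the 4 arrays, with immediate early genes in red, GABAergic genes in green, microglial genes in purple and mdDA transcription factor genes in black, and dotted lines at 2-fold. *Fos* and *Egr1* lie above 1 at a high level, *Gata3* lies below -1 at a lower one, and the mdDA transcription factor genes lie near or just below 0.

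Among genes of neighbouring neuron types those of GABAergic neurons stood lower at E14.5. Of 13 measured genes of GABAergic neurons 7 were separated downwards and 0 upwards, and 6 downwards by at least 1.5-fold (1.87% of all genes), with a median difference of -0.60. The median depended on the arrays and was -0.27 without the first E14.5 array, -0.35 without the second and -0.46 without the second E13.5 array. *Gata3*, a fate factor gene of GABAergic neurons, read 6.24 and 6.07 at E13.5 and 4.97 and 5.11 at E14.5 (-1.12, standard error 0.15, limma adjusted p = 0.695). *Lhx5* (5.37 and 5.98, then 4.68 and 4.47), *Sox14* (5.56 and 5.34, then 4.64 and 4.32), *Lhx1* (4.72 and 5.36, then 4.31 and 4.07) and *Tal1* (5.89 and 5.87, then 5.37 and 5.18), factors of the same and related lineages, were also lower on both E14.5 arrays. The E13.5 arrays of *Lhx1* lay far apart, and its difference of -0.84 was -0.52 without the second of them. The genes that carry the GABAergic function itself overlapped between the stages. *Gad2*, which encodes a GABA-synthesizing enzyme, read 7.95 and 7.56 and then 7.97 and 7.83, and *Slc32a1*, which encodes the vesicular GABA transporter, read 7.84 and 7.50 and then 7.56 and 7.58. *Slc17a6*, the vesicular glutamate transporter gene, also overlapped between the stages (8.34 and 8.22, then 8.49 and 8.23), and of 18 genes of glutamatergic, red nucleus and oculomotor neurons 7 were separated downwards and 2 upwards, with a median difference of 0.01.

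*Lhx9*, a LIM homeobox gene, was among the genes called in the fit over all 8 arrays (adjusted p = 0.0832), a call lost with adjustment over the probe sets with 1 symbol alone, and read 6.13 and 6.16 at E13.5 and 4.78 and 4.63 at E14.5. It was at 8.99 in the lateral domain and 4.33 in the mdDA domain of E12.5, so the E14.5 level was near that of the mdDA domain. A list of 15 alar plate and tectal factor genes, put together after this value was seen and with *Lhx9* among them, had 10 members separated downwards and 0 upwards. Its median difference was -0.57, and -0.30 without the first E14.5 array. Among them *Gli3*, a mediator of SHH signalling, read 5.59 and 5.35 and then 4.39 and 3.92, and *Mab21l2* read 6.60 and 7.001 and then 5.69 and 5.81. The mean level of the list was 5.30 and 5.26 at E13.5 and 4.64 and 4.77 at E14.5, against 4.73 for the mdDA domain at E12.5 and 7.59 laterally. Of the 42 genes separated downwards by at least 2-fold, 8 (19.0%) were at least 2-fold higher in the lateral than in the mdDA domain with no overlap of arrays, compared with 1.23% of all genes and 2 of the 66 (3.03%) separated upwards. The 246 genes of this lateral-high kind as a whole had a median difference of -0.01, with 56 separated downwards (22.8%) and 49 upwards (19.9%). The 352 genes higher in the mdDA domain by the same rule had a median of -0.07, with 106 separated downwards (30.1%) and 73 upwards (20.7%). Of the 373 genes separated downwards by at least 1.5-fold, 22 (5.90%) were lateral-high and 11 (2.95%) were mdDA-high, against 1.23% and 1.77% of all genes. Of the 42 genes separated downwards by at least 2-fold, 0 were mdDA-high. The larger falls thus held more lateral-high than mdDA-high genes. Over all their members, lateral-high genes were not separated downwards more often than mdDA-high genes. In sorted populations fewer cells of a type and less RNA per cell cannot be told apart.

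Markers of cells other than neurons were separated upwards more often than downwards. Of 17 microglial and macrophage genes 12 were separated upwards and 0 downwards, with a median difference of 0.28 that was 0.69 with the filter on dim probe sets, and 8 of the 17 lay below the array median on all 4 arrays. The mean level of the list was 4.04 and 4.07 at E13.5 and 4.45 on both E14.5 arrays, against 4.36 and 4.31 in the dissected domains. *Laptm5*, a lysosomal gene of blood cells, read 5.13 and 4.57 and then 6.14 and 5.77, *Ctss*, a cathepsin gene, read 4.06 and 3.91 and then 4.93 and 5.05, and *Cx3cr1*, the fractalkine receptor gene, read 4.96 and 5.14 and then 5.31 and 5.34. *Aif1*, a defining microglial marker, stayed near 3.2 on all 4 arrays. Endothelial and pericyte genes were separated upwards in 8 of 18 and downwards in 1, with the pericyte gene *Rgs5* at 4.78 and 4.49 and then at 5.25 and 5.86 and the endothelial receptor gene *Kdr* lower at E14.5 (4.22 and 4.21, then 3.69 and 3.62). Among 22 progenitor and radial glia genes 10 were separated upwards and 2 downwards, with a median difference of 0.14, which was 0.07 without the first E14.5 array, 0.24 without the second and 0.34 with that filter. *Fabp7*, which encodes the fatty acid-binding protein of radial glia, read 8.70 on both E13.5 arrays and 9.84 and 9.50 at E14.5, and *Vim*, the vimentin gene, read 8.47 and 8.52 and then 9.07 and 8.85. In the mdDA domain of E12.5 the mean level of *Fabp7* was 9.75 and that of *Vim* 9.76. The 2 progenitor genes separated downwards were *Ccnd1*, from a mean of 6.54 to 5.96, and *Pou3f2*, from 6.94 to 6.67. *Nes*, *Hes1*, *Sox1* and *Sox3* had lower means at E14.5 but overlapped between the stages. Cell division genes showed no common direction (4 of 31 upwards and 7 downwards), with *Ccna2* higher (4.41 and 4.39, then 5.24 and 5.48) and *Mcm7* lower (6.20 and 6.01, then 5.36 and 5.13). Erythroid, fibroblast and glial precursor genes were separated upwards in 3 of 10, 4 of 13 and 4 of 12 and downwards in 1, 1 and 0. The immediate early, microglial, progenitor and GABAergic differences stood on the same 4 arrays, and their part in the other results was not tested.

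**Figure D5:**
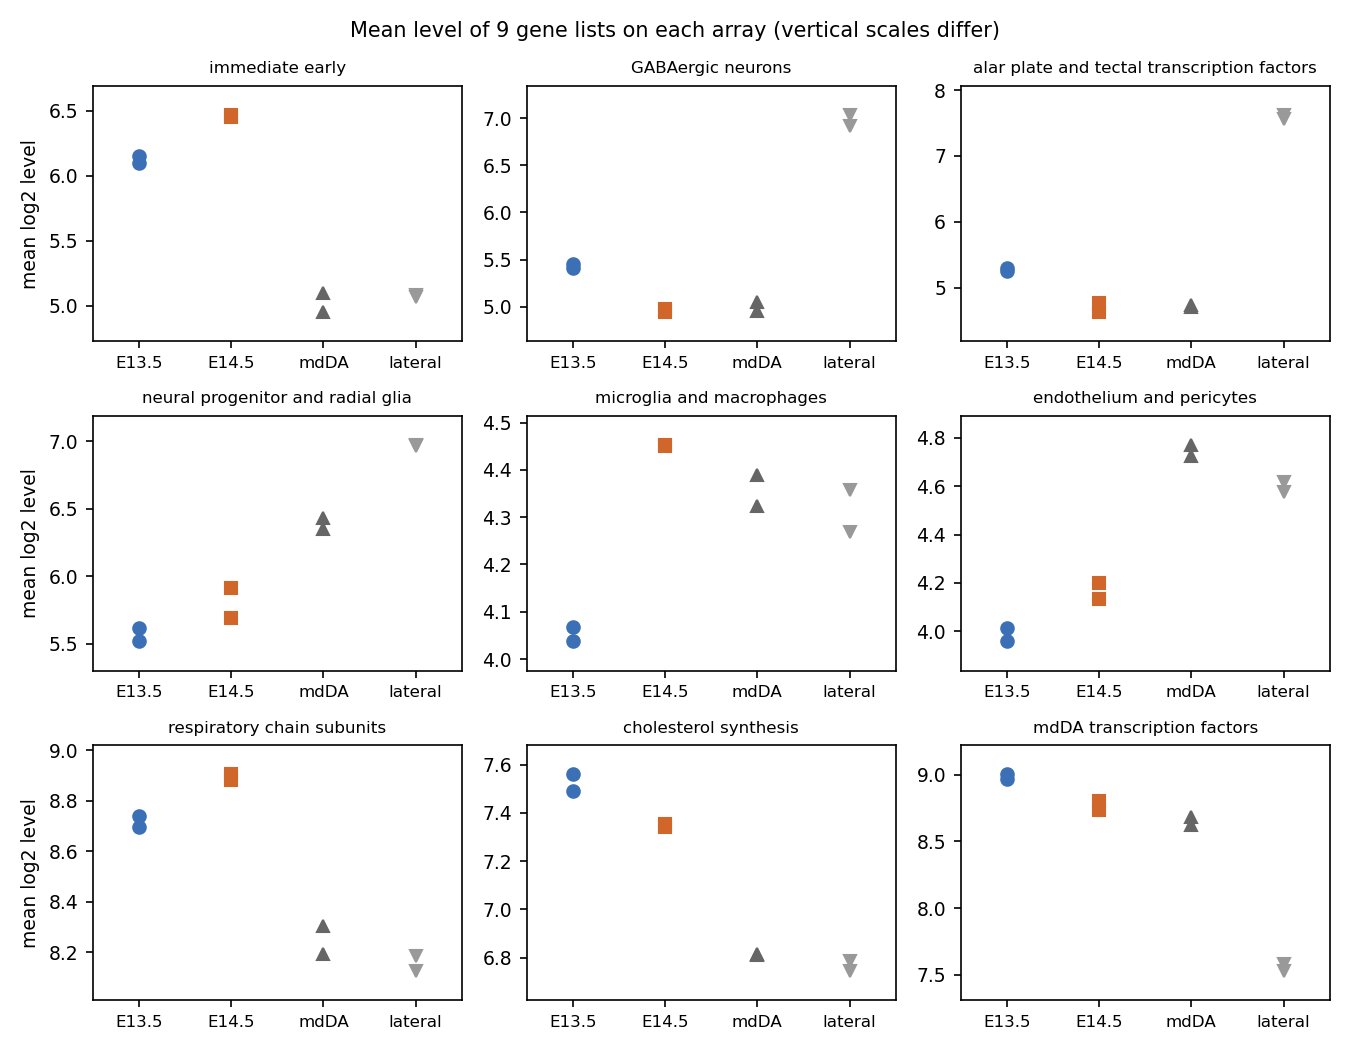
Mean log2 level of 9 gene lists on each array, with E13.5 (blue circles) and E14.5 (orange squares) sorted neurons and the E12.5 mdDA domain (dark grey triangles) and lateral domain (light grey triangles), and with a vertical scale of its own in each panel. Immediate early genes are higher in sorted neurons than in both dissected domains and highest at E14.5, and GABAergic and alar genes are closer to the mdDA domain at E14.5 than at E13.5.

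Metabolic genes differed by small amounts in many members. Of 53 respiratory chain genes 25 were separated upwards and 2 downwards, against 18.1% and 19.1% of all genes, with a median difference of 0.17. The mean level was 8.70 and 8.74 at E13.5 and 8.91 and 8.88 at E14.5. The difference was at least 1.5-fold for 2 members. *Ppargc1a*, which encodes a coactivator that drives mitochondrial biogenesis and not a subunit of the chain, read 5.08 and 5.38 and then 6.12 and 5.82. Its second probe set overlapped between the stages. *Uqcrb*, a complex III subunit gene, read 7.76 and 8.15 and then 9.27 and 8.38 on the probe set counted. *Ndufb6*, a complex I subunit gene, read 8.45 and 8.10 and then 8.88 and 8.77. *Cox6b1*, one of the members with the highest level, differed by 0.00. Cholesterol synthesis genes were separated downwards in 10 of 20 and upwards in 0, with a median difference of -0.17. *Srebf2*, which encodes the transcription factor that controls this pathway, read 8.66 and 8.55 and then 8.17 and 8.21, and *Msmo1*, an enzyme gene of its later steps, read 8.43 and 8.62 and then 8.03 and 8.07. Glycolysis genes were separated upwards in 3 of 18 (16.7%, near the 18.1% of all genes) and downwards in 0. The largest difference among them was that of *Aldoc*, an aldolase gene, at 4.58 and 4.69 and then at 5.45 and 5.82.

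Among the 10 largest in each direction with an unadjusted p below 0.05 and no overlap, the higher genes were *Mir99a*, *Hint3*, *Zfp738*, *Mal2*, *Pde3b*, *Tafa1*, *Gal*, *Snrnp35*, *Mir181b-2* and *Aldh1a1*, with differences from 2.70 to 1.47. The lower genes were *C130023O10Rik*, *Atxn1*, *Rnu3a*, *Snord16a*, *Prr11*, *Vps26c*, *Elovl3*, *Taf1a*, *Lhx9* and *Zfp418*, with differences from -2.33 to -1.35. *Tafa1*, which encodes a secreted chemokine-like protein of the brain, read 5.40 and 5.38 at E13.5 and 6.78 and 7.14 at E14.5, and *Prr11*, a gene linked to cell cycle progression, read 6.31 and 6.43 and then 4.71 and 4.72. *Hint3* by contrast was spread over 6.17 and 4.59 at E13.5 against 7.46 and 7.26. *Zfp738* had 3 probe sets, of which the other two differed by -0.26 and -0.52 while the one counted differed by 1.72. *Atxn1*, the gene of ataxin, had a second probe set that overlapped between the stages (-0.39 against -1.93).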

How the data were processed

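Sorted mdDA neurons of E13.5 and E14.5 embryos and dissected E12.5 domains were measured on Affymetrix Mouse Gene ST arrays. The deposited values are log2 levels that the authors made with RMA in Affymetrix Expression Console 1.2, and arrays of a group were kept apart. The array number limits the precision. Of 35556 probe sets 21789 carried 1 gene symbol, 1621 several and 12146 none. A gene with several probe sets (999 genes) was given by its brightest probe set, taken as the mean of all 8 arrays. Stages were compared with limma 3.58.1 in R 4.3.3 (lmFit and eBayes, no block, 4 arrays), and p-values of the 35556 probe sets were adjusted by Benjamini-Hochberg, with calls at a false discovery rate of 10%. An exact two-sided permutation test of 2 arrays against 2 cannot go below p = 0.333, so none is given. The script was tested on simulated data with the spread moderated by limma. With 200 changed probe sets the fit recovered 4.48% of log2 changes of 1 and 84.8% of those of 2. There 12 of 71 calls were false. With 2000 changed probe sets it recovered 72.7% and 96.5%. A count of 0 calls therefore does not show that no gene differed by 2-fold. Members, the 39 gene lists and the 7 lists added later were chosen with earlier results of these data known. Named genes were the 10 largest differences in each direction with separated arrays and an unadjusted p below 0.05, the 2 members of each list with the highest level, the genes that define the sorted cells and those the study follows. Alternatives were a replicate block, a fit that also held the dissected tissue, median centring, quantile normalization done again, a filter on dim probe sets, eBayes with trend and robust settings, probe sets with 1 symbol alone, a false discovery rate of 5%, a minimum of 1.5-fold, leaving out each array, and, both added after the data were seen, the mean over the probe sets of a gene and the fit over all 8 arrays with p-values adjusted over probe sets with 1 symbol alone. Coordinates and sequences are from RefSeq (GRCm38.p6).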

Additional observations from a re-analysis of the deposited data

How the results depend on the processing

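The count of 0 probe sets in each direction was the same under every alternative run except the fit over all 8 arrays, which called 9 higher and 11 lower. Adjusted over probe sets with 1 symbol alone, a setting added after the data were seen, that fit called 0. With the replicate block, the paired design that the study's methods name, limma called 0 higher and 0 lower. Same-numbered arrays deviated together with a correlation of 0.01, so the numbers were not taken to pair the arrays. With the filter on dim probe sets the list medians were 0.343 (progenitors), 0.694 (microglia), 0.296 (endothelium) and -0.794 (alar genes). Repeated quantile normalization gave -0.177 for cholesterol synthesis and 0.124 for the respiratory chain, and the mean over probe sets gave -0.187 for cholesterol synthesis. Leaving out 1 array at a time gave 0 calls throughout and medians of -0.598 to -0.266 for GABAergic genes, -0.465 to -0.301 for alar genes, -0.124 to -0.018 for WNT ligands and receptors, 0.157 to 0.268 for immediate early genes, -0.22 to -0.162 for cholesterol synthesis and 0.149 to 0.176 for the respiratory chain. Other list medians tested kept their value within the spread between arrays. The cause of these differences was not tested. With 2 technical replicates per stage, biological variation between embryos could not be measured.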

Other observations

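Some gene groups that were put together after the values were seen also had many separated members. Of the 4 NFI transcription factor genes, which are known to act in late neuronal and glial differentiation, 3 had both E14.5 arrays above both E13.5 arrays and 0 below. *Nfix* read 8.21 and 8.44 at E13.5 and 9.61 and 9.30 at E14.5 (1.13, limma adjusted p = 0.737), *Nfia* differed by 0.65 and *Nfib* by 0.39. Of 18 genes of calcium and calmodulin signalling 7 were separated upwards and 0 downwards. *Camk4*, which encodes a calcium/calmodulin-dependent kinase, read 3.93 and 3.95 and then 5.29 and 4.91, *Pnck*, another kinase gene of this family, read 5.69 and 6.08 and then 6.93 and 7.05, and *Ryr3*, a gene of a calcium release channel, read 5.57 and 5.62 and then 6.26 and 6.31.

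Genes for the machinery of protein synthesis and turnover differed by small amounts. Cytosolic ribosomal protein genes were separated upwards in 25 of 60 and downwards in 2, with a median difference of 0.07, mitochondrial ribosomal protein genes in 22 and 6 of 74, and proteasome genes in 13 and 2 of 39. Zinc finger genes with a Zfp symbol were separated downwards in 100 of 317 and upwards in 40, with a median difference of -0.12. Among all genes 18.1% were separated upwards and 19.1% downwards.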
